A study of Mus musculus with 8 samples.

Results

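The genes of class II antigen presentation were described in hearts of diabetic mice given DIZE, set against hearts of the same mutant mice given vehicle. The set holds 8 of the 55487 genes of the count table and was chosen by name for the members' roles: the chains H2-Aa, H2-Ab1 and H2-Eb1, the peptide editor H2-DMa and H2-DMb1, the invariant chain Cd74, the transactivator Ciita and the protease Ctss. All 8 passed the filter on low counts, as did 13648 genes in all. The comparison set 4 libraries from db/db hearts given DIZE against 4 from db/db hearts given vehicle. Every animal of both groups carried the db/db mutation of the leptin receptor, which causes obesity and type 2 diabetes, and no heart of a mouse without it was analysed here. DIZE is read as diminazene aceturate, a drug against protozoa, and the series' title presents the treatment as an activator of angiotensin-converting enzyme 2. Age, sex, dose, duration and the strain on which db/db was bred were not known from the sources used.

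Class II molecules are pairs of an alpha and a beta chain that carry peptides from the endosomes to the cell surface, where CD4+ T cells read them. The invariant chain blocks the groove until lysosomal proteases, cathepsin S among them, trim it away, and H2-DM then exchanges the remaining fragment for a peptide. Transcription of these genes depends on CIITA, a coactivator without DNA binding of its own, which is recruited by factors bound to the X and Y boxes of their promoters. In most cells other than dendritic cells and B cells it is made after exposure to interferon-gamma. In the heart, macrophages and dendritic cells are the best known class II positive cells, and endothelial cells can become positive.

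The promoters of class II genes share an order of elements that can be read directly. Promoters of 5 of the 8 members were in the RefSeq table used here (GRCm38.p6), with no entry for Cd74, Ciita and H2-Ab1. The sequences below are the 180 bases before the annotated start of H2-Aa, H2-Eb1 and Ctss, 5′ to 3′ on the gene's own strand. The first pair is shown because it holds the X and Y elements through which CIITA is recruited, and the last because it holds an interferon element instead. Capitals mark the X box core (GNAACT) and then the Y box core (TGATTGG) in the H2 genes, and the interferon-stimulated response element, ISRE (GAAA, any 2 bases, GAAA), in Ctss. They lie at chr17:34287824-34288003 on the minus strand for H2-Aa, at chr17:34305687-34305866 on the plus strand for H2-Eb1 and at chr3:95526606-95526785 on the plus strand for Ctss.
H2-Aa: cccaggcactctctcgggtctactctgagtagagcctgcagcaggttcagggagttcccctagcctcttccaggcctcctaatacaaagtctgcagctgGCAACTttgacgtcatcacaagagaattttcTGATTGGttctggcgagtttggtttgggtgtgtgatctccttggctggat
H2-Eb1: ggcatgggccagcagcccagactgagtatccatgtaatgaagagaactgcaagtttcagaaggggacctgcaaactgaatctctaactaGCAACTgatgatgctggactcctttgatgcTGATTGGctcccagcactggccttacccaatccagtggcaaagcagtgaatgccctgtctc
Ctss: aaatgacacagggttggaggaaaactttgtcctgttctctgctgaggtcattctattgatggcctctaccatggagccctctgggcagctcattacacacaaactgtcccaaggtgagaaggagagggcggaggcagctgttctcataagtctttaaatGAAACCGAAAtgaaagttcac

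The Y core begins 31 bases after the X core in H2-Aa and 30 bases after it in H2-Eb1. H2-DMb1 holds both as well, 31 bases apart, whereas neither was found upstream of H2-DMa in the window searched. That window, from the RefSeq entry at chr17:34125268-34125567, lies inside the GENCODE span of H2-DMa, which begins at 34119541. Other starts of H2-DMa and variants of the letters were not searched. In Ctss the interferon element covers bases -21 to -12 from the start, and no X or Y core was found. Motifs were searched on both strands of the 250 bases before the start in 32851 promoters. TGATTGG was present in 7.23% of them, GNAACT in 37.3% and the ISRE in 2.98%. An X core followed by a Y core 25 to 35 bases on was present in 36 of them, or 0.110%, and in 3 of the 5 members with a promoter. Since the X core letters were chosen after these promoters had been read, that share describes the members and is no test. The Y core includes the inverted CCAAT letters ATTGG, which alone were present in 33.8% of promoters.

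Read totals ranged from 7447664 to 10161623 per library, so low levels rest on few reads. Levels are given as CPM, the reads of a gene scaled by the library's depth in tested genes and its TMM factor. For the check of the tissue, the summed level of 7 cardiomyocyte genes ranged from 40950 to 46937 CPM in DIZE libraries and from 26224 to 44691 CPM in vehicle libraries, with vehicle 1 lowest. Genes of thymus and lymph node served as a check for attached tissue: of 7, Rag1, Rag2, Ccl21a and Foxn1 had 0 reads in all 8 libraries, and the 7 summed to 0.606 to 3.32 CPM in DIZE and 0.268 to 2.57 CPM in vehicle libraries, mostly from Cxcl13, a chemokine of B cell follicles. Library numbers only name libraries and pair none. The labels do not say whether the libraries came from separate animals, and p-values therefore refer to the spread between libraries, which may be technical.

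All 8 members were lower in DIZE than in vehicle hearts, and for none did the difference pass the test against the spread between libraries. With the quasi-likelihood test of edgeR, adjusted over all genes by Benjamini-Hochberg, 0 of 8 members passed an adjusted p of 0.05, as against 0.0366% of the genes tested in either direction and 0.0147% on the lower side. At an unadjusted p under 0.05 the count was 1 of 8, Ciita, as against 19.4% of genes in either direction and 10.3% on the lower side. DESeq2 also passed 0 members after adjustment, where it called 4.44% of genes, and limma-voom passed 0, where it called 0.0293%. At an unadjusted p under 0.05 each of those tools again gave 1 member, beside 19.5% of genes with DESeq2 and 19.6% with limma-voom. A log2 fold change below 0 was found for 8 of 8 members and for 51.8% of all genes, with a median of -0.73 for the members and -0.01 for all genes. For 0 of 8 members did the groups fail to overlap, as against 12.4% of genes in either direction and 5.26% on the lower side. Without vehicle 4, the library in which 7 of the 8 members peaked, the members' median was -0.12, with 5 of 8 below 0. Without both vehicle 1 and vehicle 4 it was 0.42, with 1 of 8 below 0. For every member these libraries lay above vehicle 2 and vehicle 3. Leaving out both while keeping all DIZE libraries raises each log2 fold change by construction, so it is no test of the sign.

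**Figure D1:**
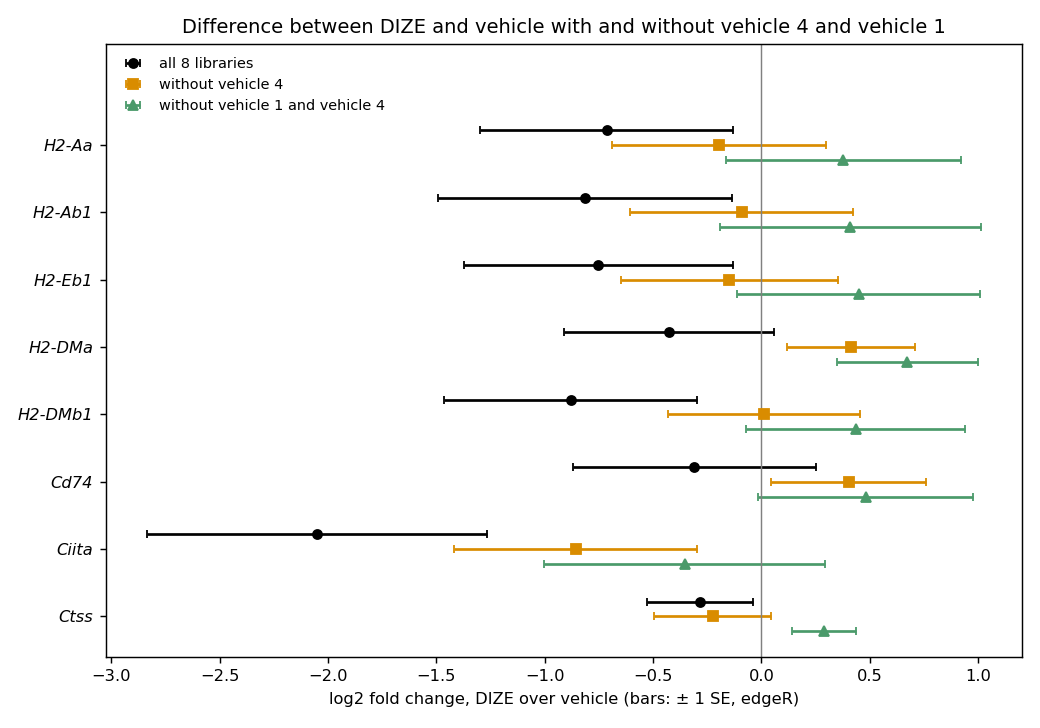
Log2 fold change of DIZE over vehicle hearts (x axis) for the 8 class II members, with all 8 libraries and without vehicle 4, and without both vehicle 1 and vehicle 4; points are estimates of edgeR and bars are ±1 SE. Ciita lies lowest at -2.05 with all libraries and at -0.86 without vehicle 4, and Cd74 passes to the other side of 0, at 0.40, without vehicle 4.

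H2-Aa, H2-Ab1 and H2-Eb1 encode the chains of the I-A and I-E molecules: the alpha chain of I-A, its beta chain, and the beta chain of I-E. H2-Aa, on chromosome 17 at 34282744 to 34287823 (GRCm38, minus strand), had 33.1, 11.2, 27.5 and 54.0 CPM in DIZE 1 to 4, against 59.3, 22.7, 26.0 and 98.2 CPM in vehicle 1 to 4. The groups overlapped, with vehicle 4 highest, DIZE 2 lowest, and DIZE 1, DIZE 3 and DIZE 4 above vehicle 2 and vehicle 3. Its mean was 31.4 ± 17.7 CPM in DIZE and 51.6 ± 35.2 CPM in vehicle hearts (SD, n = 4 each), a log2 fold change of -0.71 ± 0.58 (SE; 95% interval -2.06 to 0.64; edgeR adjusted p = 0.533).

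H2-Ab1, at 34257689 to 34269419 on the plus strand, had 25.1, 6.84, 23.3 and 41.9 CPM in DIZE 1 to 4, against 40.8, 16.9, 20.0 and 93.3 CPM in vehicle 1 to 4. The order of libraries resembled that of H2-Aa, again with vehicle 4 at the top and DIZE 2 at the bottom. The log2 fold change was -0.81 ± 0.68 (95% interval -2.40 to 0.77; edgeR adjusted p = 0.543). H2-Eb1, at 34305867 to 34316674 on the plus strand, had 20.1, 7.24, 20.7 and 36.7 CPM in DIZE 1 to 4, against 39.2, 13.3, 18.0 and 72.4 CPM in vehicle 1 to 4. Here too the groups overlapped, since DIZE 1, DIZE 3 and DIZE 4 all lay above vehicle 2 and vehicle 3. Its log2 fold change was -0.75 ± 0.62 (95% interval -2.19 to 0.68; edgeR adjusted p = 0.536). Without vehicle 4 the log2 fold changes of the 3 chains were -0.20 for H2-Aa, -0.09 for H2-Ab1 and -0.15 for H2-Eb1, and without both vehicle 1 and vehicle 4 they were above 0, between 0.38 and 0.45.

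Cd74 encodes the invariant chain, which guides new class II molecules to endosomes and also serves as a receptor for the cytokine MIF. Located on chromosome 18 at 60803848 to 60812652 (plus strand), it had 71.3, 28.2, 63.1 and 115 CPM in DIZE 1 to 4, against 58.0, 46.8, 53.1 and 186 CPM in vehicle 1 to 4. Vehicle 4 stood far above the other vehicle libraries, and DIZE 1, DIZE 3 and DIZE 4 lay above all of those others. Its log2 fold change was -0.31 ± 0.56 (95% interval -1.61 to 0.99; edgeR adjusted p = 0.795). The sign turned on 1 library: without vehicle 4 the log2 fold change was 0.40 ± 0.36.

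H2-DMa and H2-DMb1 encode the chains of H2-DM, the peptide editor. H2-DMa, on chromosome 17 at 34119541 to 34139101 (plus strand), had 4.76, 3.55, 4.35 and 6.14 CPM in DIZE 1 to 4, against 4.62, 2.31, 3.62 and 14.4 CPM in vehicle 1 to 4. Apart from vehicle 4, the libraries of both groups lay together between 2.31 and 6.14 CPM. Set against vehicle, it had a log2 fold change of -0.43 ± 0.48 (95% interval -1.49 to 0.64; edgeR adjusted p = 0.655), and without vehicle 4 it was 0.41. H2-DMa shares 360 exon bases with Brd2 on the other strand, a gene at 129 to 179 CPM, and whether reads were counted by strand is unknown, so its level is uncertain.

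H2-DMb1, at 34153072 to 34160230 on the same strand of chromosome 17, had 3.05, 0.789, 2.63 and 3.02 CPM in DIZE 1 to 4, against 3.49, 1.41, 2.15 and 10.3 CPM in vehicle 1 to 4. Vehicle 4 was again highest and DIZE 2 lowest, and that lowest value rests on 6 reads. With all libraries the log2 fold change was -0.88 ± 0.58 (95% interval -2.17 to 0.41; edgeR adjusted p = 0.427), and without vehicle 4 it was 0.01. Of the 151-base windows in its transcripts, 4.65% are identical in the neighbouring copy H2-DMb2, so few of its reads could be shared, and none of the windows of the other 7 members is found in another gene.

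Ciita encodes the transactivator itself and was the least abundant member per kilobase of exon. In CPM that order did not hold in vehicle hearts, where Ciita averaged 4.79 and H2-DMb1 4.34 CPM. Located on chromosome 16 at 10480059 to 10528418 (plus strand), Ciita had 1.22, 0.526, 0.404 and 2.44 CPM in DIZE 1 to 4, against 3.28, 1.54, 1.48 and 12.8 CPM in vehicle 1 to 4. DIZE 1, DIZE 2 and DIZE 3 lay below all vehicle libraries, while DIZE 4 lay above vehicle 2 and vehicle 3. These levels rest on 10, 4, 4 and 25 reads in DIZE 1 to 4, against 32, 12, 11 and 131 reads in vehicle 1 to 4. The log2 fold change was -2.05 ± 0.78 (95% interval -3.79 to -0.31), with an edgeR p of 0.0256 before and 0.200 after adjustment. With DESeq2 the adjusted p was 0.0704. Without vehicle 4 the log2 fold change was -0.86, without vehicle 1 it was -2.20, and without both it was -0.35, so that Ciita alone of the members was below 0 in all of these. Its exons share 329 bases with Dexi on the other strand, a gene at 26.1 to 32.5 CPM, so its low level is uncertain in the same way.

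Ctss encodes cathepsin S, the protease that cuts the invariant chain in antigen-presenting cells. Located on chromosome 3 at 95526786 to 95556403 (plus strand), it had 40.7, 38.6, 31.2 and 37.1 CPM in DIZE 1 to 4, against 68.4, 30.9, 29.4 and 50.1 CPM in vehicle 1 to 4. Its pattern was unlike that of the other members: vehicle 1 was highest, vehicle 4 only second, and DIZE libraries differed by at most 1.30-fold. The log2 fold change was -0.28 ± 0.24 (95% interval -0.82 to 0.25; edgeR adjusted p = 0.545). Without vehicle 1 it was -0.0046 ± 0.18, without vehicle 4 it was -0.23, and without both it was 0.29. With the trend by GC content and length removed it was -0.07 ± 0.21.

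**Figure D2:**
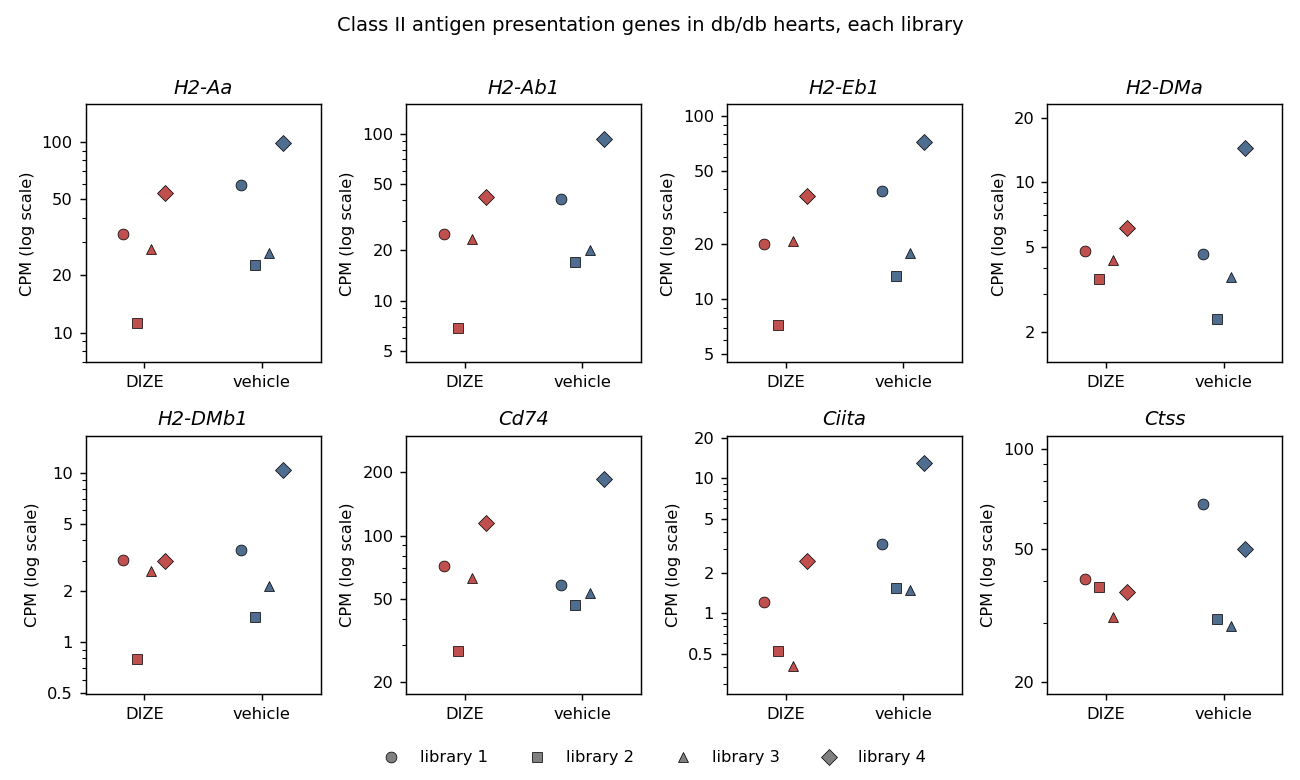
CPM on a log axis for each of the 8 class II members in the 4 DIZE libraries and the 4 vehicle libraries; each point is 1 library, and its shape gives the library's number within its group. Vehicle 4 is the top point for 7 members, reaching 186 CPM for Cd74, and vehicle 1 is the top point for Ctss at 68.4 CPM.

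The spread within groups was wide for these genes. The within-group SD on the log2 scale exceeded that of between 98.7% and 99.5% of tested genes for the 7 members other than Ctss, and that of 86.4% for Ctss. Within the DIZE group, the highest library exceeded the lowest by 4.83-fold for H2-Aa, 6.13-fold for H2-Ab1, 5.07-fold for H2-Eb1 and 4.1-fold for Cd74. Within the vehicle group the same ratio was 4.33 for H2-Aa, 5.51 for H2-Ab1, 5.43 for H2-Eb1 and 3.98 for Cd74. For these 4 genes, libraries given the same treatment differed by more than the group means did. DIZE 2 was the lowest of all 8 libraries for 5 of 8 members, beside 2057 of the 13648 tested genes.

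Vehicle 4 carried 8.35 times the median of the other vehicle libraries for Ciita, 4.80 times for H2-DMb1, 4.67 times for H2-Ab1, 4.03 times for H2-Eb1, 3.98 times for H2-DMa, 3.77 times for H2-Aa, 3.51 times for Cd74 and 1.62 times for Ctss. The median of this ratio was 4.01 over the members and 1.01 over all tested genes. Genes induced by interferon-gamma stood at 9.06 and genes induced by type I interferon at 2.32. Of all 13648 tested genes 1074 were highest in vehicle 4. All 19 tested genes of the interferon-gamma list were, and so were all 12 of the type I list. The type I list summed to 76.9 to 105 CPM in DIZE libraries and 268 CPM in vehicle 4. The summed level of the interferon-gamma list was 241 to 664 CPM in DIZE libraries. It was 3721 CPM in vehicle 4 and 280 to 607 CPM in the other vehicle libraries. Cxcl9, a chemokine of that list which draws T cells, had 3.30, 2.37, 3.13 and 10.2 CPM in DIZE 1 to 4, against 12, 4.1, 5.23 and 50.1 CPM in vehicle 1 to 4. Ifng itself had 1 read in all 8 libraries together, which lay in vehicle 4. The part of the interferon response in the class II values was not tested.

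**Figure D3:**
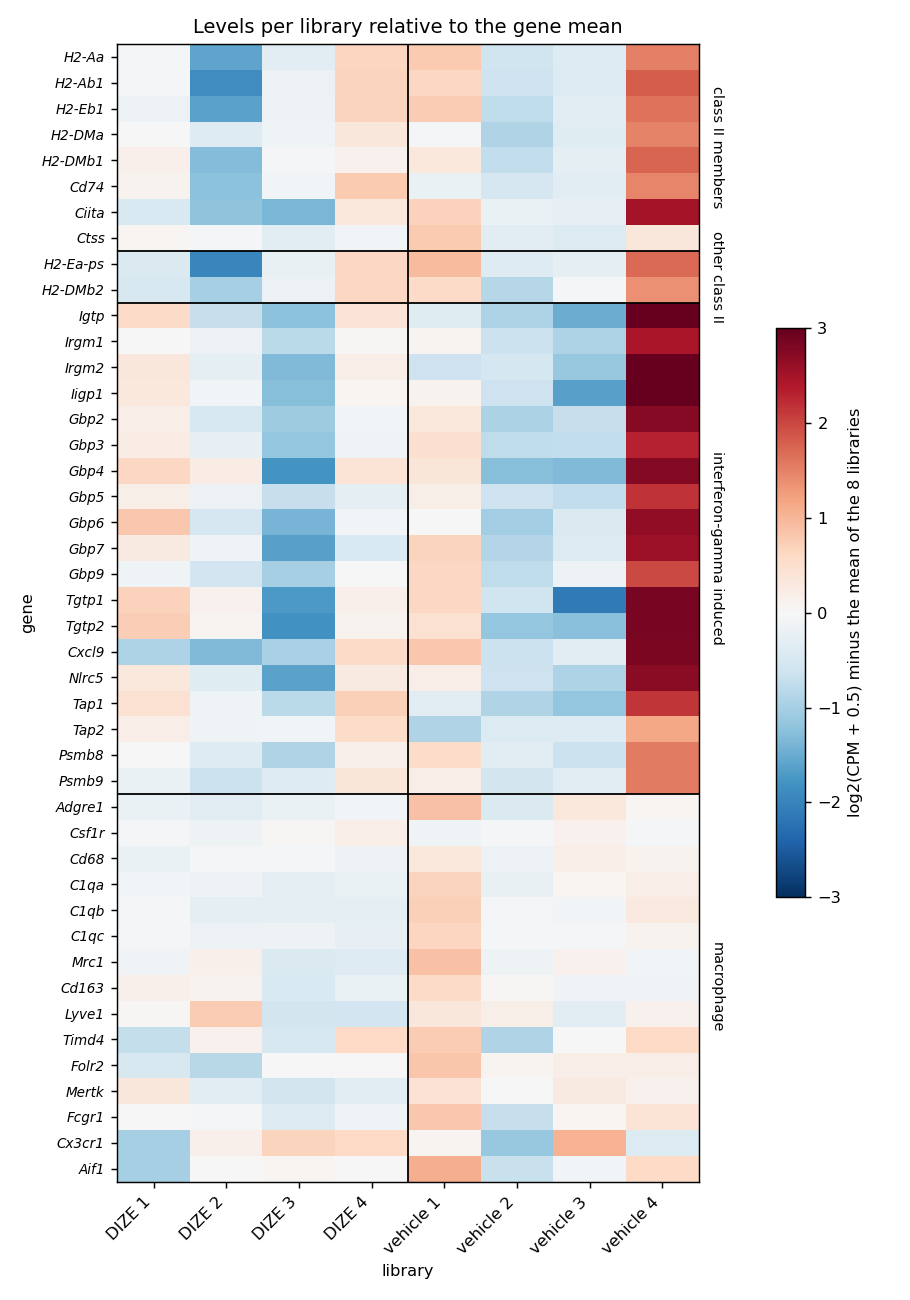
Log2 of CPM + 0.5 of each gene, centred on its mean over the 8 libraries (colour scale, log2 units), with DIZE libraries left of vehicle libraries and genes running down the page as class II members, other class II genes, interferon-gamma induced genes and macrophage genes. Vehicle 4 is the warm column through the class II members and the interferon-gamma list, while 12 of the 15 macrophage genes are highest in vehicle 1.

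Other than interferon genes, markers of the cells that can express class II were set beside the members. A bulk sample cannot tell fewer cells of a type from less RNA per cell. The summed level of 15 macrophage genes was 452 to 534 CPM in DIZE libraries, against 793 CPM in vehicle 1 and 510 to 574 CPM in the other vehicle libraries. Vehicle 1 was highest for 12 of the 15 and vehicle 4 for 0, as against 3074 and 1074 of all 13648 tested genes. The macrophage genes did not peak in the library where 7 of 8 members did, and their ratio of vehicle 4 to the other vehicle libraries had a median of 0.988. Vehicle 1 was also the highest library for the summed fibroblast genes and the lowest for the summed cardiomyocyte genes. In the comparison of groups, 0 of 15 passed adjustment, 13 were lower in DIZE, 4 of them at an unadjusted p under 0.05, and the median log2 fold change was -0.40, or -0.17 without vehicle 1. C1qa, a complement gene of resident macrophages, had 62.8, 59.6, 55.6 and 57.8 CPM in DIZE 1 to 4, against 106, 57.6, 69.9 and 76.8 CPM in vehicle 1 to 4. Ctss peaked in vehicle 1 as C1qa did, and the ratio of Ctss to C1qa, chosen after the values were seen, was 0.562 to 0.648 in DIZE and 0.42 to 0.653 in vehicle libraries. The part of macrophage content in Ctss was not tested.

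Of 11 dendritic cell genes, 3 were tested. Clec9a had 5.01, 3.82, 4.45 and 4.58 CPM in DIZE 1 to 4, against 7.49, 6.03, 7.11 and 4.32 CPM in vehicle 1 to 4, so that vehicle 4, where class II was highest, was its second lowest library. Clec10a, a lectin shared by dendritic cells and macrophages, had 25.1, 18.0, 17.3 and 22.2 CPM in DIZE 1 to 4, against 18.6, 14.6, 14.8 and 14.2 CPM in vehicle 1 to 4. Its log2 fold change was 0.41, opposite in sign to the members' (edgeR adjusted p = 0.196). Zbtb46, which is also made by endothelial cells, had a log2 fold change of -0.33 (edgeR adjusted p = 0.253). Among the genes with too few reads to be tested, Itgax had 0.977, 0.263, 0.707 and 1.85 CPM in DIZE 1 to 4. In vehicle 1 to 4 it had 0.924, 0.385, 0.402 and 2.45 CPM. Like Itgax, Batf3 was highest in vehicle 4, at 0.589 CPM, whereas Xcr1, Cd209a, Ccr7, Itgae and Siglech were not. Flt3 was level between vehicle 4, at 0.392 CPM, and DIZE 4, at 0.390 CPM. Levels this low rest on few reads, so their order is uncertain. The markers of this list thus had no common peak.

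Of 10 B cell genes 2 were tested, and the list summed to 5.92 to 22.2 CPM in DIZE libraries and 11.2 to 24.6 CPM in vehicle libraries, with vehicle 4 at 14.6. T cell genes, 2 of 10 tested, summed to 8.03 to 11.8 CPM in DIZE and 11.8 to 13.7 CPM in vehicle libraries. Most of that sum was Cd28, at 6.97 to 7.90 CPM in DIZE and 7.49 to 11.0 CPM in vehicle libraries. NK cell genes, 0 of 8 tested, summed to 0.263 to 1.10 CPM in DIZE and 0.385 to 1.33 CPM in vehicle libraries. Monocyte genes, 2 of 6 tested, summed to 5.66 to 11.3 CPM in DIZE and 5.13 to 11.8 CPM in vehicle libraries. Genes of all leukocytes summed to 49.2 to 61.9 CPM in DIZE and 46.9 to 74.9 CPM in vehicle libraries, with vehicle 4 highest. Taken singly, 3 of these 5 genes were highest in vehicle 1 and 2 in vehicle 4. Laptm5 fell to 9.03 CPM in vehicle 1, its lowest library, which lowered the sum there. Endothelial genes summed to 884 to 1194 CPM in DIZE and 993 to 1449 CPM in vehicle libraries, and fibroblast genes to 1165 to 1639 CPM in DIZE and 1328 to 2319 CPM in vehicle libraries. In none of these lists did a gene pass adjustment. Erythroid genes, a sign of blood in the tissue, summed to 8.95 to 78.5 CPM in DIZE libraries and 101 to 210 CPM in vehicle libraries. DIZE 2, the lowest library for 5 members, was lowest for all 5 tested erythroid genes too; the part of blood in the class II values was not tested.

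The proportion between partner genes within a library does not depend on its depth, and 4 such ratios were tested by a two-sided exact permutation test over the 70 splits of 4 against 4, whose smallest p is 0.0286. After adjustment over the 4, 1 ratio alone could reach no less than 0.114, and 3 at the smallest p would be needed to pass 0.05, so a ratio that misses the threshold is not shown to be equal between groups. The ratio of H2-Aa to H2-Ab1 was 1.32, 1.63, 1.18 and 1.29 in DIZE 1 to 4, against 1.45, 1.34, 1.30 and 1.05 in vehicle 1 to 4. While each chain varied several-fold between libraries, the ratio of the chains stayed between 1.05 and 1.63. Its log2 difference, DIZE minus vehicle, was 0.07 (exact p = 0.686, adjusted 0.686). For H2-Eb1 over H2-Ab1 the log2 difference was 0.08, with ratios of 0.801 to 1.06 in DIZE and 0.776 to 0.960 in vehicle libraries (exact p = 0.514, adjusted 0.686).

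Cd74 over H2-Ab1 was 2.84, 4.12, 2.7 and 2.75 in DIZE 1 to 4, against 1.42, 2.77, 2.66 and 2.00 in vehicle 1 to 4. The groups overlapped only through vehicle 2, which lay above DIZE 3 and DIZE 4. The log2 difference was 0.51 (exact p = 0.0857, adjusted 0.286), and without vehicle 1 it was 0.32. H2-DMa over H2-DMb1 was 1.56, 4.50, 1.65 and 2.03 in DIZE 1 to 4, against 1.32, 1.64, 1.69 and 1.40 in vehicle 1 to 4. The high value of DIZE 2 rests on 27 and 6 reads, with a 95% exact interval of 1.82 to 13.3 that covers counting error only. The log2 difference was 0.55 (exact p = 0.143, adjusted 0.286), and without DIZE 2 it was 0.21.

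**Figure D4:**
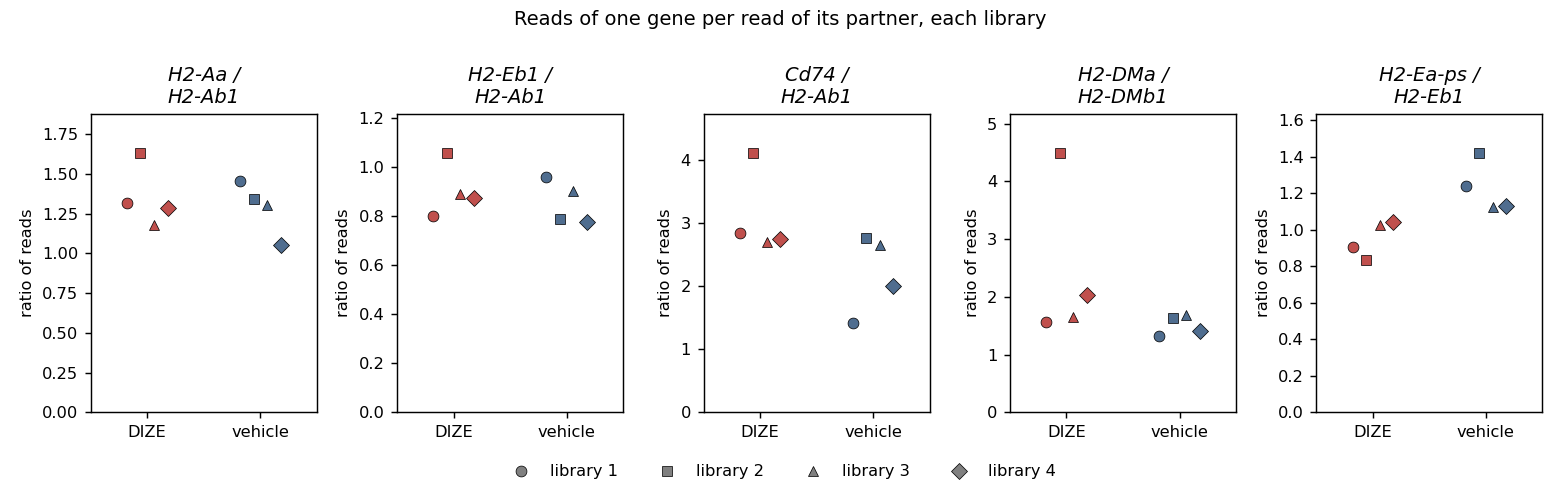
Ratio of reads between partner class II genes within each library (linear axes from 0), with DIZE libraries left of vehicle libraries; each point is 1 library, and shapes give the library's number within its group. H2-Aa over H2-Ab1 stays between 1.05 and 1.63 in all 8 libraries, whereas the 4.50 of DIZE 2 stands apart for H2-DMa over H2-DMb1.

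Levels were compared between members per kilobase of exon. On that scale Cd74 averaged 41.4 ± 21.4 CPM per kilobase in DIZE and 51.3 ± 39.9 in vehicle hearts, and Ctss 27.2 ± 2.98 in DIZE and 32.9 ± 13.6 in vehicle hearts (SD, n = 4 each). The chains followed: H2-Eb1 averaged 10.9 ± 6.20 CPM per kilobase in DIZE and 18.4 ± 13.8 in vehicle, H2-Ab1 9.47 ± 5.59 in DIZE and 16.7 ± 13.8 in vehicle, and H2-Aa 8.28 ± 4.66 in DIZE and 13.6 ± 9.27 in vehicle. H2-DMb1 averaged 1.41 ± 0.638 CPM per kilobase in DIZE and 2.58 ± 2.42 in vehicle, and H2-DMa 1.36 ± 0.315 in DIZE and 1.81 ± 1.6 in vehicle. Ciita was lowest, at 0.12 ± 0.0978 CPM per kilobase in DIZE and 0.502 ± 0.571 in vehicle hearts. The order was the same in both groups, but the means of Cd74 and Ctss, of the chains and of the H2-DM pair differed by less than the larger SD of the genes compared. Single libraries departed from it: in vehicle 4, H2-Eb1 was at 37.2 and Ctss at 36.9 CPM per kilobase. The length used matters for H2-Ab1: per kilobase of its longest transcript, 1212 bases against 2568 bases of exon in all, it averaged 20.1 in DIZE and 35.3 in vehicle hearts. That is above both other chains and, in vehicle hearts, above Ctss at 33.0 on the same scale, so the order of H2-Ab1 and Ctss depends on the length used.

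Other genes of the class II system were few in the heart. H2-Eb2, H2-Pa and H2-Pb had 0 reads in all libraries, and H2-Oa and H2-Ob had too few to be tested. H2-DMb2, the second H2-DM beta gene, had 0.977, 0.526, 1.31 and 2.63 CPM in DIZE 1 to 4, against 2.57, 0.641, 1.48 and 4.81 CPM in vehicle 1 to 4 (log2 fold change -0.79 ± 0.57, edgeR adjusted p = 0.467). Its log2 fold change was -0.18 without vehicle 4 and 0.41 without both vehicle 1 and vehicle 4. H2-Ea-ps, the alpha chain of I-E, is annotated as a polymorphic pseudogene: mice of the reference strain C57BL/6 carry a promoter deletion and do not express it, whereas other strains do. It was nevertheless abundant, with 18.2, 6.05, 21.2 and 38.2 CPM in DIZE 1 to 4, against 48.6, 19.0, 20.2 and 81.8 CPM in vehicle 1 to 4 (log2 fold change -1.02 ± 0.63, edgeR adjusted p = 0.410). For it the value was -0.48 without vehicle 4 and 0.11 without both. Per kilobase it averaged 20.2 ± 12.8 in DIZE and 40.9 ± 28.6 in vehicle hearts, above H2-Eb1, its partner. The alleles that these mice carry at the H2 locus, and how well their reads matched the reference there, were not tested.

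The ratio of H2-Ea-ps to H2-Eb1, looked at after its values were seen and so given with no test, was 0.903, 0.836, 1.02 and 1.04 in DIZE 1 to 4, against 1.24, 1.42, 1.13 and 1.13 in vehicle 1 to 4. On this ratio the groups did not overlap, with DIZE lower, although they overlapped for each of the genes. How often ratios of other gene pairs separate the groups was not computed.

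Upstream of the members, the factors that bind their promoters had no common direction. Of 7 such factors, 4 were higher and 3 lower in DIZE, 0 passed adjustment, and the median log2 fold change was 0.05. Rfx5, which binds the X box, had 6.47, 3.68, 4.55 and 6.83 CPM in DIZE 1 to 4, against 6.98, 7.31, 6.70 and 6.57 CPM in vehicle 1 to 4 (log2 fold change -0.35 ± 0.21, edgeR adjusted p = 0.383). It did not peak in vehicle 4. Nfyb, a subunit of the factor bound to the Y box, had 21.5, 23.0, 20.1 and 20.9 CPM in DIZE 1 to 4, against 19.5, 19.4, 15.6 and 15.8 CPM in vehicle 1 to 4, with no overlap (log2 fold change 0.28, edgeR adjusted p = 0.256). Creb1, which binds the X2 part of the X box, had a log2 fold change of -0.44 (edgeR adjusted p = 0.175), and Nfya, which with Nfyb makes up the Y box factor, one of -0.37 (adjusted p = 0.294).

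Of the 11 tested genes that act upstream of Ciita, 10 were lower in DIZE and 1 was higher, with 0 past adjustment, 1 at an unadjusted p under 0.05 and a median log2 fold change of -0.29. That median was -0.19 without vehicle 4 and -0.12, with 7 of 11 lower, without both vehicle 1 and vehicle 4. Jak2, a kinase of the interferon-gamma receptor, was the gene under 0.05, with 43.1, 45.9, 41.7 and 42.8 CPM in DIZE 1 to 4, against 60.4, 47.1, 47.5 and 56.3 CPM in vehicle 1 to 4. The groups did not overlap, but the log2 fold change was -0.29 (edgeR adjusted p = 0.216). Irf1, a transcription factor that acts on the Ciita promoter, had 39.6, 27.4, 22.2 and 36.3 CPM in DIZE 1 to 4, against 40.7, 24.2, 34.3 and 105 CPM in vehicle 1 to 4. It shared the peak in vehicle 4 with Ciita, and its log2 fold change was -0.71 ± 0.42 (edgeR adjusted p = 0.376), or -0.08 without vehicle 4. Jak1, the other receptor kinase, had a log2 fold change of -0.23 (edgeR adjusted p = 0.345) and Ifngr1, a receptor chain, one of -0.25 (adjusted p = 0.372), or -0.12 without vehicle 1.

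Lysosomal genes that prepare antigen and invariant chain had a median near that of all genes. Of 11 tested, 3 were higher and 8 lower in DIZE, 0 passed adjustment, and the median log2 fold change was -0.04. Ctsz, a cathepsin, had 32.5, 29.6, 42.1 and 40.6 CPM in DIZE 1 to 4, against 60.9, 45.8, 48.3 and 45.2 CPM in vehicle 1 to 4. The groups did not overlap, and its log2 fold change of -0.47 had an unadjusted p of 0.00945 and an edgeR adjusted p of 0.148. Sppl2a, the protease that removes the last stub of the invariant chain from the membrane, had a log2 fold change of -0.28 (edgeR adjusted p = 0.223). Ctsf, another cathepsin that can cut the invariant chain, was among the higher genes at 0.26 (adjusted p = 0.352), and Ifi30, the lysosomal thiol reductase, stood at -0.25 (adjusted p = 0.367).

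Of 9 tested genes of class II turnover, costimulation and CD74 partners, 2 were higher and 7 lower in DIZE, 0 passed adjustment, and the median log2 fold change was -0.27. Vehicle 1 was highest for 5 of the 9, beside 3074 of all 13648 tested genes, and without it the median was -0.13, with 5 of 9 lower. Cd86, a costimulatory ligand shown with class II to T cells, had 3.66, 4.74, 2.32 and 4.29 CPM in DIZE 1 to 4, against 7.90, 4.62, 6.17 and 5.10 CPM in vehicle 1 to 4. The groups overlapped only through DIZE 2 and vehicle 2. Its log2 fold change was -0.67 ± 0.26 (unadjusted p = 0.0250, edgeR adjusted p = 0.199), and without vehicle 4 it was -0.74. Cd80, the related ligand, had a log2 fold change of -0.54 (edgeR adjusted p = 0.358), Cxcr4, a partner of CD74 as a receptor, -0.43 (adjusted p = 0.346), and March8, a ligase of the family that sends class II to degradation, -0.18 (adjusted p = 0.361).

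Among interferon genes, 0 of 19 on the interferon-gamma list and 0 of 12 on the type I list passed adjustment. On the interferon-gamma list 18 were lower and 1 higher in DIZE, 0 of them at an unadjusted p under 0.05, with a median log2 fold change of -1.24 that was 0.22 without vehicle 4. Cxcl9 had a log2 fold change of -1.90 ± 0.92 (edgeR adjusted p = 0.305), and -0.57 without vehicle 4. On the type I list 12 were lower, beside 51.8% of all genes. At an unadjusted edgeR p under 0.05, 10 of them were lower, beside 10.3% of all genes. The median of the type I list was -1.01, and -0.59 without vehicle 4. Without both vehicle 1 and vehicle 4 it was -0.27, with 11 of 12 lower. Isg15, a ubiquitin-like protein induced by type I interferon, had 1.59, 1.71, 1.31 and 1.37 CPM in DIZE 1 to 4, against 3.69, 2.82, 2.68 and 4.41 CPM in vehicle 1 to 4. The groups did not overlap for it (log2 fold change -1.20 ± 0.26, edgeR adjusted p = 0.0888), unlike for any class II member.

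The genes whose pattern over the 8 libraries lay closest to the members' mean pattern were found among 13631 genes by the root-mean-square difference of centred log2 CPM. The median of that difference over all compared genes was 0.81 log2 units. Psmb9, a subunit of the immunoproteasome, was closest at 0.21, followed by H2-DMb2 at 0.24, Trim21, an antibody receptor of the cytosol, at 0.29 and Pfkfb3, a regulator of glycolysis, at 0.30. H2-Q4 at 0.31, H2-K2 at 0.34 and H2-T23 at 0.35, class I genes or relatives of them, and Mgl2, a lectin of macrophages and dendritic cells, at 0.34 completed the nearest 8. Of these 8 genes, 5 lie on chromosome 17 with the H2 members. The share of that chromosome among all compared genes was not computed, so the count only describes these genes. The closest gene, Psmb9, also stands on the interferon-gamma list. Psmb9 had 9.89, 7.11, 8.69 and 14.8 CPM in DIZE 1 to 4, against 13.2, 7.70, 8.98 and 34.9 CPM in vehicle 1 to 4, with the peak in vehicle 4 and the low in DIZE 2 that the chains also showed. H2-Q4, H2-K2 and H2-T23 belong to a family of related genes. How much sequence they share with other genes was not computed, so their counts are uncertain. The members' own distances to their mean pattern were 0.20 for H2-Aa and H2-DMb1, 0.23 for H2-Eb1, 0.29 for H2-Ab1 and Cd74, 0.36 for H2-DMa, 0.54 for Ciita and 0.63 for Ctss.

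The sample titles take a form with the letters db and a form without, 2 libraries of each group in each, and the members were also compared within a form. On the log2 scale with 0.5 CPM added, the difference of DIZE minus vehicle among titles with db was between -1.06 and -0.21 for the members other than H2-DMa, and 0.28 for H2-DMa. Among titles without db it was between -1.66 and -0.17 for all 8. These values are given with no test, since 2 libraries stand against 2 in each form. Vehicle 1 has a title with db and vehicle 4 a title without, and both lay above vehicle 2 and vehicle 3 for every member. The forms are therefore no separate check of the direction. With title form as a block in edgeR, 8 of 8 members were below 0 and 0 passed adjustment, with adjusted p from 0.176 for Ciita to 0.766 for Cd74. The labels do not say what the title form stands for.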

How the data were processed

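Heart RNA of db/db mice was sequenced in 8 libraries, 4 given DIZE and 4 given vehicle, grouped by the treatment label. Per the labels' protocols, TRIzol-extracted RNA was made into stranded poly(A) libraries read as pairs of 151 bases. Build mm10, HTSeq 0.6.1p1, STAR 2.7.3, R 4.1 and edgeR are named in the submitters' processing notes. Neither the annotation release nor the strand setting of the counting is given in the sources used. The authors deposited raw counts per Ensembl gene, not normalized, and 0 columns lacked a sample. Symbols matched 55141 of 55487 IDs. Positions and exon lengths came from GENCODE M21 (GRCm38) and promoters from RefSeq (GRCm38.p6).

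Here, log2 fold changes came from edgeR 4.0.16 in R 4.3.3: quasi-likelihood, robust, two-sided, TMM factors, filterByExpr with a minimum count of 10 and a total of 15, and Benjamini-Hochberg adjustment over all tested genes at 0.05. Alternatives used DESeq2 1.42.0, limma 3.58.1 voom, other factors and filters, blocks by title form and by title number, a GC and length correction, and libraries left out. A ratio's test was an exact permutation test. The most alike libraries of a group differed by a chi-square of 5.54 per degree of freedom, more than counting noise, so none was treated as a repeat of another. Vehicle 1 differed from the other vehicle libraries by 24.8 to 36.5 per degree of freedom, and those from each other by 12.2 to 13.9. Means over 4 libraries of a few reads each carry counting error beside the spread given.

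The members and the lists were chosen with earlier results of these data known. Named are all members, the genes closest to them in pattern, up to 4 genes per list by unadjusted p, and those at 0 or that define a list. Length by longest transcript, list medians without libraries, Laptm5 and the untested dendritic cell genes were added after seeing the data.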

Additional observations from a re-analysis of the deposited data

Results flagged for a closer look

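In 24 groups of 4 libraries, covering the 8 members and 4 ratios in each treatment, a library stood apart from its group in 4 cases by Dixon's criterion (the gap to the nearest library over the group's range). Its rate of about 1 in 20 groups by chance holds for independent, normally distributed values. Here it was applied to CPM and ratios without a log scale, in groups that share libraries. The 4 cases therefore cannot be set against that rate and only describe the values. Vehicle 4 stood at 186.4 CPM for Cd74 while the rest of its group lay at 46.81 to 57.98 CPM, a gap of 0.920 of the range. For Ciita it stood at 12.85 CPM, and the rest at 1.475 to 3.284 CPM, a gap of 0.841. Both belong to the same library, in which the interferon-gamma list and the type I list also peaked. Cd74 over H2-Ab1 was 4.115 in DIZE 2, against 2.701 to 2.835 in the other DIZE libraries, a gap of 0.905. H2-DMa over H2-DMb1 was 4.5 in DIZE 2, against 1.56 to 2.032 in the others, a gap of 0.839, and this value rests on 6 reads of H2-DMb1.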

How the results depend on the processing

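No member passed adjustment in the main comparison or under any of 17 alternatives. Over all genes 5 passed, against 386 with no filter, 606 with DESeq2, 9 with title form as a block, 0 with the replicate block by title number and 0 without both vehicle 1 and vehicle 4. With 1 library left out the count ranged from 0 to 240, the highest without vehicle 2. The members' median was 0.42 without both vehicle 1 and vehicle 4, and from -1.06 to -0.12 with 1 library left out. Since vehicle 1 and vehicle 4 lay above vehicle 2 and vehicle 3 for every member, leaving out both raises the log2 fold changes by construction. Ciita was below 0 in all 17 alternatives. With the trend by GC content and length removed, all 8 members were below 0, with a median of -0.72. In that setting Ctss was at -0.07 and H2-Ab1 at -1.05. Without both vehicle 1 and vehicle 4, the log2 fold change was 0.38 for H2-Aa, 0.41 for H2-Ab1, 0.45 for H2-Eb1, 0.67 for H2-DMa, 0.44 for H2-DMb1, 0.48 for Cd74 and 0.29 for Ctss. With the replicate block, which takes vehicle 4 and DIZE 3 out of the contrast since their numbers occur once, it was 0.0012 for H2-Aa, 0.037 for H2-Ab1, 0.0058 for H2-Eb1, 0.48 for H2-DMa, 0.021 for H2-DMb1 and 0.45 for Cd74. Libraries with the same title number share only the number: their deviations from group means correlated at -0.08 for number 1 and between -0.14 and 0.02 for number 4. With 1 library left out, H2-DMa ranged from -0.69 to 0.41, H2-DMb1 from -1.16 to 0.012, Cd74 from -0.66 to 0.40 and the log2 difference of H2-Aa over H2-Ab1 from -0.022 to 0.14, each changing sign. These reversals came without vehicle 4 (-0.021 for the ratio), and for the ratio also without DIZE 2. The cause of these changes was not tested. Depth limits Ciita and H2-DMb1, which had as few as 4 and 6 reads.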
